A study of Homo sapiens with 24 samples.

Results

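Knockdown of METTL3 in androgen-deprived LNCaP:C4-2 cells was examined across all genes in 6 RNA-seq libraries, 3 that received siRNAs against METTL3 (siMETTL3) and 3 that received a non-targeting siRNA control (siSCR), out of 24 libraries in the series. The 6 were chosen by their labels, as the vehicle libraries of this cell line with either siRNA. LNCaP:C4-2 is an androgen-sensitive but castration-resistant derivative of the LNCaP prostate cancer line. All cells were grown in phenol red-free medium with charcoal-stripped serum, which is depleted of steroids, transfected again after 48 h, and kept for 72 h in ethanol as vehicle. The libraries with which they are set side by side were 6 from the same cells given 1 nM of the synthetic androgen R1881 with the same siRNAs, and 6 vehicle libraries of 22Rv1, another prostate cancer line. Only 1 pool of siRNAs against METTL3 was used. Neither the labels nor the methods say whether the replicates came from separate cultures, so p-values measure the spread between these libraries, which may be technical.

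METTL3 is the catalytic subunit of the complex that methylates adenosine to N6-methyladenosine (m6A) in messenger RNA, mostly within a short consensus that has GGACT among its common forms. Its partner METTL14 holds the RNA, and WTAP, VIRMA, ZC3H13, RBM15 and CBLL1 place the complex on its targets. Reader proteins bind m6A and alter the stability, splicing and translation of the transcript, so loss of METTL3 can raise some transcripts and lower others. In the low-oxygen response, the transcription factor HIF-1 binds the core ACGTG or GCGTG near genes for glucose uptake, glycolysis, collagen hydroxylation and mitophagy, and prolyl hydroxylases such as EGLN1 mark its alpha subunit for degradation when oxygen is present.

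The promoters of 4 genes that rose with siMETTL3 are shown because genes of glycolysis and the HIF-1 response gave the largest numbers of calls among the lists examined. They had 6 of 17 and 17 of 39. By share, glycolytic enzymes (35.3% higher) came after the shorter list of UDP-glucuronosyltransferases (37.5% lower). Each runs from 250 bases before to 50 bases after the RefSeq transcription start on GRCh38.p14, 5′ to 3′ on the strand of the gene, and capitals mark ACGTG or GCGTG on either strand, counted separately where CACGTG holds 2 overlapping copies. PLOD2, on the minus strand at chr3:146161135-146161434, hydroxylates lysine in collagen and held 3 copies. ERO1A, on the minus strand at chr14:52695509-52695808, forms disulphide bonds in the endoplasmic reticulum and held 3. PGK1, on the plus strand at chrX:78103998-78104297, is a glycolytic kinase and held 4. PFKFB4, on the minus strand at chr3:48556754-48557053, sets the level of a glycolytic activator and held 1. These 4 are examples and do not follow the order of p. P4HA2, with 0 copies, and PFKFB3 and P4HA1, with 1 each, had smaller edgeR p-values than PGK1.
PLOD2: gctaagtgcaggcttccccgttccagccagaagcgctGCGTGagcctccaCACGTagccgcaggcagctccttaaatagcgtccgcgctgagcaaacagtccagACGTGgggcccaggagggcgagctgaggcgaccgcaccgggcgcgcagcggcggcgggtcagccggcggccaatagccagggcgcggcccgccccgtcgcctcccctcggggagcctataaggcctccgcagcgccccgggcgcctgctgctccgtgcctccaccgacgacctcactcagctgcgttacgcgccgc
ERO1A: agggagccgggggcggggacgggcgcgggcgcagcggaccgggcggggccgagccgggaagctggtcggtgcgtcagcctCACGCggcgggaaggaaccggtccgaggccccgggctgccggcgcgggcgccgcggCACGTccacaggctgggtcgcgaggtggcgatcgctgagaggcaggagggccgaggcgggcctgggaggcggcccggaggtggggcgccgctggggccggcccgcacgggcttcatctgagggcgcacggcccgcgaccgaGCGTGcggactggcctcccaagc
PGK1: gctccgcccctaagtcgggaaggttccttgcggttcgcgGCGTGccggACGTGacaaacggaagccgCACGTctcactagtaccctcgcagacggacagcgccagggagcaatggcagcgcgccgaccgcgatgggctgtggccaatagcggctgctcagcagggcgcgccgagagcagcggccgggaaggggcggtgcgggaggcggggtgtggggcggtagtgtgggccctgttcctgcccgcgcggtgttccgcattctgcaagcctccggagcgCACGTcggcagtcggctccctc
PFKFB4: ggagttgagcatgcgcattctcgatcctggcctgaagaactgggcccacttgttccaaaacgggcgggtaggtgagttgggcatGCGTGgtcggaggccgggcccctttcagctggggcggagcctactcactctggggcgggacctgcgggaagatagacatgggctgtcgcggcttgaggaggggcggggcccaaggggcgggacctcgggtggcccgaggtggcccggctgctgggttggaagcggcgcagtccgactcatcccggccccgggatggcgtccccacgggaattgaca

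The motif was common in windows of this length, standing in 48.4% of all 35116 RefSeq promoters and in 63.1% of the 11403 that belonged to tested genes. It stood in 70.6% of the 17 promoters of glycolytic enzymes and in 78.8% of the 33 matched promoters of other HIF-1 targets. Of the 105 matched promoters of genes higher with siMETTL3, 65.7% held it, and of the 42 of lower genes 50%. P4HA2 and PFKP, both higher with siMETTL3, held none in this window. These are matches of letters and no measurement of binding.

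The 6 libraries held 16714495 to 18894296 fragments counted on genes, which the authors deposited as raw counts. Levels are given as CPM, counts scaled to library size, after TMM normalization, and 3 counts, the smallest signal read here, equalled 0.159 to 0.179 CPM, a floor that covers counting error only. Mitochondrial genes took 6.89% to 9.60% of the fragments, the most in siMETTL3 #1, which also had the fewest genes detected (23275 against up to 24676). The 10 luminal prostate markers examined, among them KLK2, KLK3, HOXB13, FOXA1, FOLH1, KRT8, KRT18 and TMPRSS2, were all expressed in every library, from 9.68 CPM upwards. Of the 10, 0 were called as changed, where 1.2% of all genes tested were, so this count says little. TMPRSS2 was at 42.4 to 48.9 CPM in siSCR and 60.2 to 89.3 in siMETTL3 (log2 fold change 0.70, edgeR adjusted p = 0.105). HOXB13 was at 376 to 437 CPM against 505 to 612 (0.43, edgeR adjusted p = 0.127). Of 16 markers of basal, stromal, endothelial and immune cells, KRT5, TP63 and DCN were at 0 counts in all 6 libraries, and only COL1A1, VWF and PTPRC exceeded 1 CPM in any. The summed level of the 16 was 43.9 to 62.7 CPM in siSCR and 59.2 to 70.7 in siMETTL3, nearly all of it COL1A1. In bulk RNA, fewer cells of a kind and less RNA per cell cannot be told apart.

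METTL3 itself (chromosome 14, 21498133 to 21511375 on GRCh38, minus strand) was measured at 29.2, 26.9 and 25.1 CPM in the siSCR libraries and at 18.4, 18.4 and 16.2 CPM in the siMETTL3 libraries. Every knockdown library lay below every control, and the mean changed by −34.6%. On the log2 scale the difference was −0.61 with a standard error of 0.11 (edgeR quasi-likelihood test with Benjamini-Hochberg adjustment over 16435 genes, adjusted p = 0.0127). The exact two-sided permutation test gave p = 0.1, the smallest that 3 libraries against 3 allow. For the METTL3 log2 fold change the adjusted p rose to 0.0982 without siSCR #1, to 0.0671 without siSCR #3 and to 0.0552 without siMETTL3 #2, with changes of −0.55, −0.66 and −0.64. With only the 6 vehicle libraries in the fit it was 0.0540, and 0.161 with the replicate block added. With the GC offset the change was −0.57 (adjusted p = 0.00228), under the 1.5-fold threshold. Of the other 8 members of the writer complex tested, 0 were called, with METTL14 at −0.15 (adjusted p = 0.492) and WTAP at −0.09 (adjusted p = 0.710). Of 10 m6A readers and erasers 0 were called. Over all genes tested 1.2% were called, so 0 calls in lists this short say little.

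Across 16435 genes tested, 197 were differentially expressed (DEGs, adjusted p under 0.05 and a change of at least 1.5-fold), which is 1.2% of those tested. More rose than fell with siMETTL3, with 136 higher (0.828%) and 61 lower (0.371%). The plot of change against mean level shows the higher genes spread over all levels, while the lower genes lay at lower levels, with a median of 7.82 CPM against 18.8. The median change was 1.92-fold in the higher and 1.83-fold in the lower genes, and 83 of the 197 changed at least 2-fold. The mean level was at least 100 CPM for 33 of the higher but for 3 of the lower genes, and under 1 CPM for 8 and 9. Protein-coding genes made up 170 of the DEGs and long noncoding RNAs 18. In all 197 the groups did not overlap, which their choice on these same libraries largely fixes. Over all genes, 10.9% had every siMETTL3 library above every siSCR library and 11% had every one below.

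The number of calls rested on single libraries. Without siSCR #3, 0 genes were called by edgeR (1858 at an unadjusted p under 0.05), without siSCR #1 6 and without siMETTL3 #2 8, whereas 339 were called without siMETTL3 #1, 129 without siSCR #2 and 200 without siMETTL3 #3. In each of these 6 fits all 197 DEGs kept their sign and an unadjusted p under 0.05, which the choice of these genes on the same libraries, with groups that do not overlap, largely fixes. When all 24 libraries shared 1 estimate of the spread, a fit added after seeing the data, 474 genes were called, 191 of them among the 197, and 201 to 564 with each of the 6 libraries left out.

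**Figure D1:**
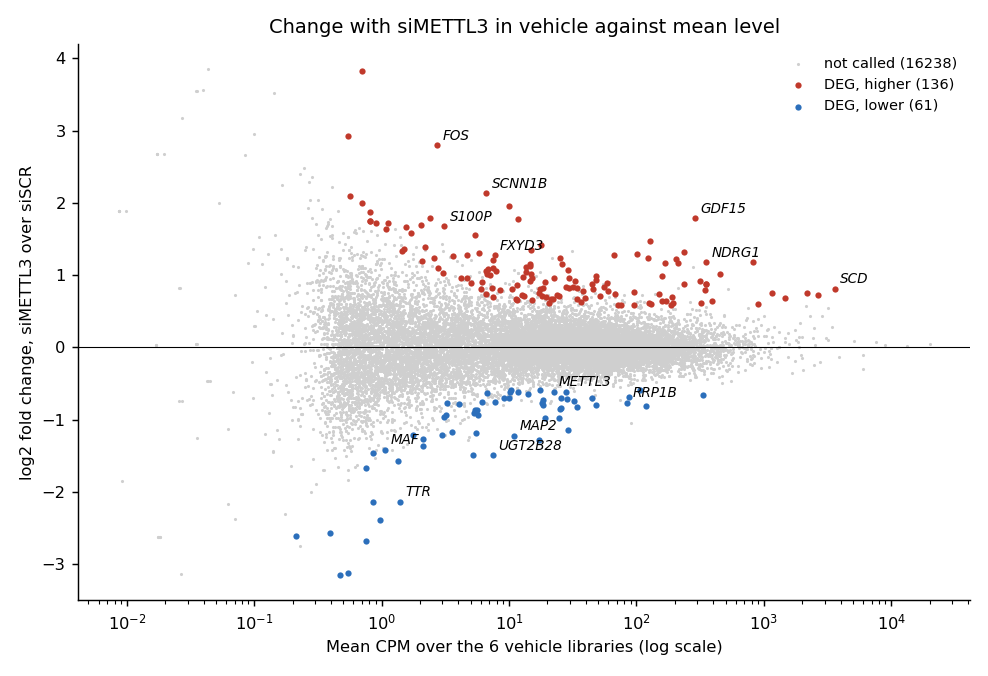
Each point is 1 of 16435 genes, with the mean CPM over the 6 vehicle libraries on a log axis and the log2 fold change of siMETTL3 over siSCR on the vertical axis, and DEGs in colour. The 136 higher genes include highly expressed ones such as SCD, with a mean of 3615 CPM, and the 61 lower genes include METTL3 at −0.61 and TTR at −2.14.

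Of 17 glycolytic enzymes tested, 6 rose and 0 fell, where 0.828% of all genes tested were called higher. A fold change above 0 was measured in 16 of them, against 50.2% of all genes, and the median log2 fold change was 0.43 against 0.00 over all genes. The phosphoglycerate kinase PGK1 was at 1587, 1849 and 1458 CPM in siSCR and at 2978, 2841 and 2412 CPM in siMETTL3. All 3 knockdown libraries exceeded the highest control, and the log2 fold change was 0.75 (standard error 0.13, edgeR adjusted p = 0.0104). ENO2, an enolase, went from 59.2 ± 17.5 to 144 ± 26.2 CPM (mean ± SD, 3 libraries each), with a log2 fold change of 1.29 (edgeR adjusted p = 0.0262). GPI, which isomerizes glucose 6-phosphate, rose by 0.69 on the log2 scale (adjusted p = 0.0285). HK2 and PFKP, isoforms of the hexokinase and phosphofructokinase steps, both rose by 0.64 (adjusted p = 0.0293 and 0.0228), and the sixth call was the aldolase ALDOC at 0.88. LDHA, which makes lactate, had 0.43 with an adjusted p of 0.0206, under the fold threshold. GAPDH, a reference gene in many assays, had 0.28 (adjusted p = 0.150), and HK1 0.05. The summed level of the list was 16544 to 19300 CPM in siSCR and 23105 to 26152 CPM in siMETTL3.

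The other targets of HIF-1 gave the most calls of any list. Of 39 tested, 17 were called higher and 0 lower, against 0.828% of all genes called higher, 36 had a fold change above 0, against 50.2%, and the median was 0.64. PLOD2 was at 123.1, 148.9 and 120.2 CPM in siSCR and at 391.5, 275.0 and 216.8 CPM in siMETTL3, which is 1.17 on the log2 scale (standard error 0.16, adjusted p = 0.00777). The groups were well apart, with the highest value in siMETTL3 #1. P4HA2, which hydroxylates proline in collagen, went from 32.3 ± 5.599 to 64.0 ± 5.25 CPM (0.99, adjusted p = 0.00977), and its partner P4HA1 had 0.92. Among regulators of metabolism, PFKFB4 was at 61.8, 95.5 and 61.8 CPM in siSCR and at 161, 200 and 154 CPM in siMETTL3 (1.23, standard error 0.18, adjusted p = 0.00946), the siSCR #2 library being the control nearest to the knockdown. HILPDA, which inhibits lipolysis at lipid droplets, rose from 39.0 ± 4.47 to 94.7 ± 17.6 CPM (1.28, adjusted p = 0.00977). NDRG1, a stress-responsive gene, was at 205, 268 and 173 CPM in siSCR and at 490, 551 and 425 CPM in siMETTL3, and rose by 1.18 on the log2 scale (standard error 0.19, edgeR adjusted p = 0.00977). ERO1A, which oxidizes newly made secreted proteins, had 112, 142 and 118 CPM against 398, 272 and 195, and rose by 1.22 (adjusted p = 0.00977).

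Further calls in the list, named after their values were seen, were BHLHE40 (1.47), PFKFB3 (1.17), the angiogenic factor VEGFA (1.01), STC2 (0.88), the mitophagy receptors BNIP3L (0.80) and BNIP3 (0.60), INSIG2 (0.71), PLOD1 (0.62), the glucose transporter SLC2A1 (0.61) and EGLN1 (0.59), each a log2 fold change. CA9, a widely used hypoxia marker, had 0.88 with an adjusted p of 0.0953. The summed level of the list was 4074 to 5216 CPM in siSCR and 6876 to 8373 CPM in siMETTL3. HIF1A was at 125, 128 and 147 CPM in siSCR and at 187, 108 and 103 CPM in siMETTL3, where siMETTL3 #1 stood above all controls and the others below them (log2 fold change −0.01, adjusted p = 0.986). Of the 10 genes tested in the list of HIF subunits and regulators 0 were called, against 1.2% of all genes. VHL was at −0.04 (adjusted p = 0.860), and the largest change was 0.65. The fit of all 24 libraries called 1 of the 10. EGLN1, which also regulates HIF-1 and was called higher, was counted among the targets instead. HIF1A-AS3, annotated on the opposite strand near HIF1A, had 0.847 ± 0.274 CPM in siSCR and 2.57 ± 0.783 in siMETTL3 (1.58, adjusted p = 0.0200), and since the counting used no strand option its reads cannot be separated from those of a gene on the other strand.

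These counts also rested on single libraries. Called targets of HIF-1 numbered 18 without siSCR #2, 18 without siMETTL3 #1 and 21 without siMETTL3 #3, but 0 without siSCR #1 or #3 and 1 without siMETTL3 #2. The median stayed between 0.64 and 0.77 in these 6 fits, and for glycolytic enzymes between 0.40 and 0.49. The list of glycolytic enzymes and the list of targets were written with earlier results of these data known and are no independent evidence of their direction.

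**Figure D2:**
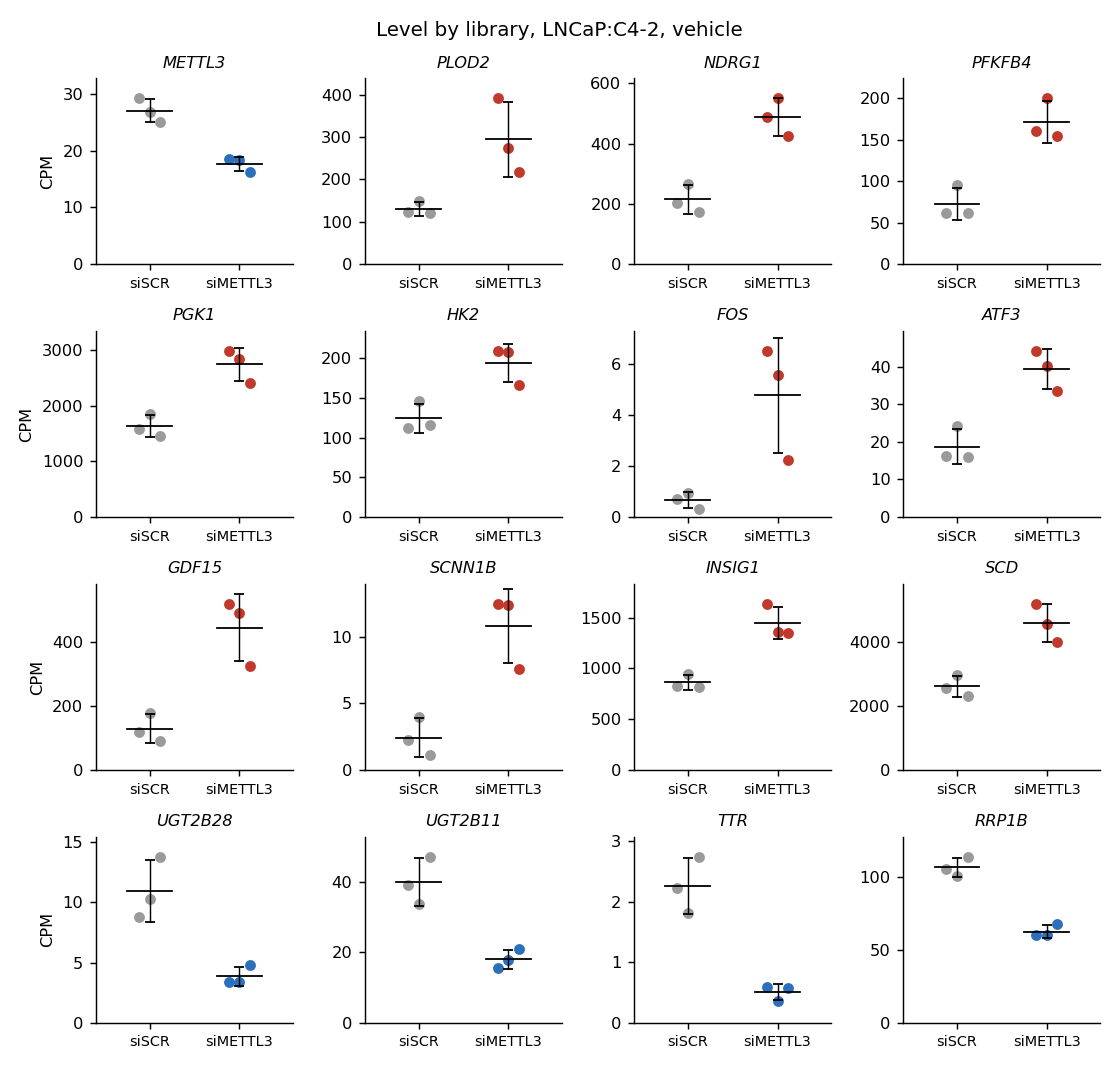
CPM of 16 genes in each of the 6 vehicle libraries, siSCR in grey and siMETTL3 in red (higher) or blue (lower), with the mean and SD of 3 libraries as a line and bar and each axis starting at 0. In all 16 panels the libraries of the 2 groups do not overlap, and FOS shows a wide spread among the knockdown libraries, from 2.238 to 6.501 CPM.

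Transcription factors of the immediate early response, which cells induce within minutes of stress or growth factor signals, included the gene with the largest change above 1 CPM. FOS was at 0.723, 0.959 and 0.328 CPM in siSCR and at 6.501, 5.562 and 2.238 CPM in siMETTL3 (log2 fold change 2.80, standard error 0.55, edgeR adjusted p = 0.0211). It was low in every control, and siMETTL3 #3 was the lowest of the knockdown libraries. ATF3, a stress-induced repressor, rose from 18.8 ± 4.65 to 39.3 ± 5.33 CPM (1.07, adjusted p = 0.00977) and MAFF from 5.30 ± 1.41 to 18.2 ± 4.89 CPM (1.78, adjusted p = 0.0293). These were the 3 called of 21 tested, against 0.828% of all genes called higher, with 0 lower and a median of 0.48. JUN had 0.91 (adjusted p = 0.0765), EGR1 −0.13 (adjusted p = 0.817) and MYC −0.32 (adjusted p = 0.0970). Of 18 feedback genes of MAPK signalling 1 was called, the phosphatase DUSP5 (0.70, adjusted p = 0.0318). EGFR, a receptor upstream of that pathway, rose from 112 ± 13.2 to 186 ± 42.9 CPM (0.74, adjusted p = 0.0373).

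Stress genes moved in part. GDF15, a secreted cytokine induced by stress and by p53, was at 117, 179 and 90.4 CPM in siSCR and at 519, 491 and 326 CPM in siMETTL3 (1.79, standard error 0.33, edgeR adjusted p = 0.0161). Even the lowest knockdown library was far above the highest control. It was the only one of 24 p53 targets called higher, and PLK2 was the only one called lower (−0.77, adjusted p = 0.0330). In the integrated stress response, DDIT3 (0.84, adjusted p = 0.0319) and TRIB3 (0.62, adjusted p = 0.00977) were called of 19 tested, whereas their regulator ATF4 had 0.04 (adjusted p = 0.896). In the unfolded protein response, the sensor ERN1 rose by 0.89 (adjusted p = 0.0164) and the cochaperone DNAJB9 by 0.82 (adjusted p = 0.0149) of 20 tested, while the chaperone HSPA5 had 0.21 (adjusted p = 0.186). Of 14 cytosolic heat shock proteins 0 were called. Over all genes tested 0.828% were called higher and 0.371% lower.

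Lipid genes gave few calls, all higher, where 0.828% of all genes tested were called higher. SCD, which desaturates fatty acids, was at 2575, 2975 and 2322 CPM in siSCR and at 5206, 4593 and 4022 CPM in siMETTL3 (0.81, standard error 0.13, edgeR adjusted p = 0.00977). It was the only one of 31 genes of fatty acid metabolism to be called. INSIG1, which retains the sterol sensor SCAP in the endoplasmic reticulum, was at 825, 945 and 815 CPM against 1633, 1362 and 1351 (0.75, standard error 0.10, adjusted p = 0.00536). With the sterol carrier STARD4 (0.59, adjusted p = 0.0438) it made up the 2 calls among 23 genes of cholesterol synthesis, whose median was 0.22 with 19 above 0.

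Of 9 epithelial sodium channel subunits and regulators tested, 2 were called higher and 0 lower, against 0.828% of all genes called higher. SCNN1B and SCNN1G, the beta and gamma subunits of the epithelial sodium channel, lie beside each other on chromosome 16. SCNN1B was at 2.22, 3.99 and 1.09 CPM in siSCR and at 12.47, 12.37 and 7.597 CPM in siMETTL3 (2.14, standard error 0.41, edgeR adjusted p = 0.0200), and SCNN1G had 1.96 (adjusted p = 0.00977). The alpha subunit SCNN1A had 0.23 (adjusted p = 0.192). FXYD3, a modulator of the sodium pump, rose from 4.49 ± 0.142 to 10.9 ± 1.52 CPM (1.28, adjusted p = 0.00536). S100P, a calcium-binding protein, was at 1.14, 2.07 and 1.20 CPM against 4.43, 5.04 and 4.74 (1.68, standard error 0.24, adjusted p = 0.00777), with little spread among the knockdown libraries. LDLRAD1 (1.79), KCNN1 (1.72), PTPRN (1.69), PDIA2 (1.67) and MISP (1.64) completed the 12 largest rises above 1 CPM, and C2orf72 (1.116) was among the 5 smallest p-values. CKB, the brain-type creatine kinase, rose from 1994 ± 139 to 3300 ± 305 CPM (0.73, adjusted p = 0.0302).

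Growth factor, adhesion and cell state genes contributed 1 to 3 members per list, where 0.828% of all genes tested were called higher. IGF2 (1.03) and IGFBP5 (1.00) were called of 13 genes of the insulin-like growth factor axis, EFNA1 (0.99) and UNC5B (0.81) of 34 axon guidance genes, and ITGB4 (0.66), ITGA5 (0.63) and LAMC1 (0.60) of 29 genes of integrins, laminins and collagens. VIM (0.95) was called of 12 epithelial and mesenchymal state genes, SAT1 (0.96), which acetylates polyamines, of 12 in polyamine metabolism, CDKN1C (1.24), a cyclin-dependent kinase inhibitor, of 23 genes of G1, and MT2A (0.59) of 11 metallothioneins and zinc transporters. MT2A belongs to a family of near-identical genes, and its change was 1.501-fold, at the threshold. Of 37 genes of DNA replication 0 were called, with 35 below 0 and a median of −0.23, and of 30 mitotic genes 0 were called, with a median of −0.08. Cytosolic ribosomal proteins (77), nuclear respiratory chain subunits (62), mitochondrially encoded proteins (13), SR proteins and hnRNPs (30), amino acid transporters (20), interferon-stimulated genes (27), antigen presentation genes (15), neuroendocrine markers (4) and enzymes of androgen synthesis (8) also held 0 calls.

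**Figure D3:**
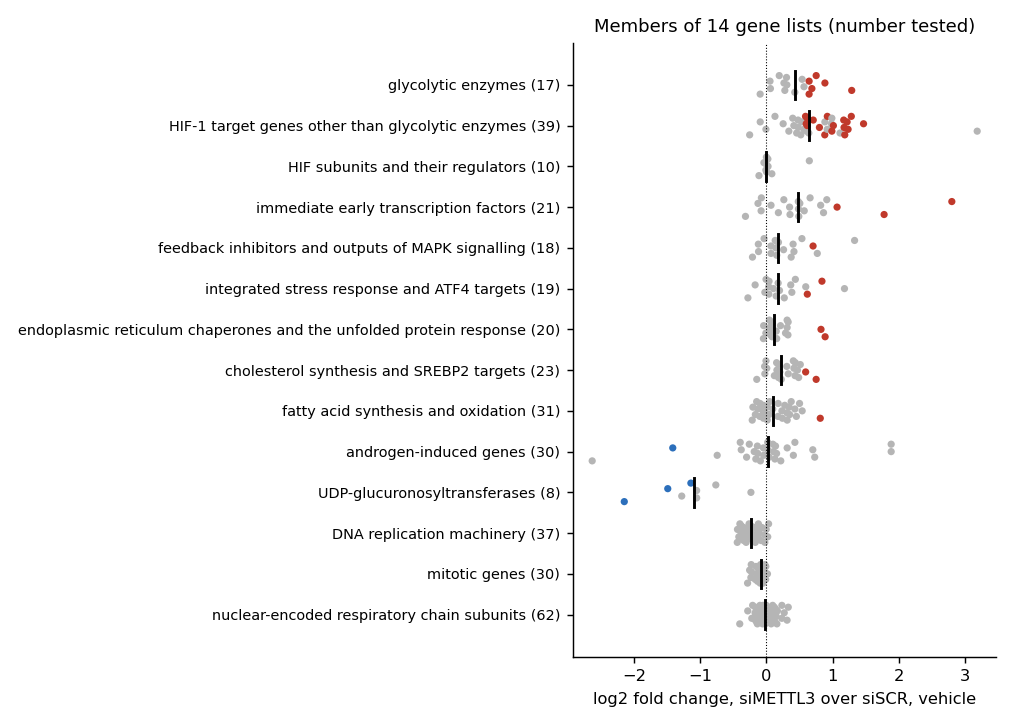
Each point is a tested member of 1 of 14 gene lists, placed by its log2 fold change of siMETTL3 over siSCR in vehicle, with calls in red (higher) or blue (lower) and the list's median as a black bar. Glycolytic enzymes and other HIF-1 targets lie mostly to the right of 0, at medians of 0.43 and 0.64, UDP-glucuronosyltransferases lie to the left at −1.10, and androgen-induced genes centre near 0 at 0.02.

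Among the UDP-glucuronosyltransferases, some UGT2B enzymes conjugate and so inactivate androgens. Of 8 of these transferases tested, 3 were called lower and 0 higher, against 0.371% of all genes called lower, all 8 had a fold change below 0, and the median was −1.10. UGT2B28 was at 8.78, 10.3 and 13.8 CPM in siSCR and at 3.43, 3.43 and 4.79 CPM in siMETTL3 (−1.49, standard error 0.28, edgeR adjusted p = 0.0181). UGT2B11 was at 39.1, 33.7 and 47.2 CPM against 15.54, 17.78 and 20.97 (−1.14, standard error 0.23, adjusted p = 0.0250). UGT2B7 fell from 1.40 ± 0.166 to 0.318 ± 0.249 CPM (−2.15, adjusted p = 0.0495). It had only 10, 5 and 2 counts in siMETTL3, near the floor of 3, and DESeq2 gave it no adjusted p. UGT2B15 had −1.05 (adjusted p = 0.0613) and UGT2B17 −0.76 (adjusted p = 0.0700). The UGT2B genes are close copies of each other and reads that aligned to several places were left out, so the split among them is uncertain. The summed level of the list was 233 to 316 CPM in siSCR and 140 to 161 CPM in siMETTL3. KLK3, the androgen-induced gene of prostate-specific antigen, had 0.10 (adjusted p = 0.733). Of 30 androgen-induced genes 1 was called, the transcription factor MAF (−1.41, adjusted p = 0.00977), and of 18 genes of prostate luminal identity 0 were.

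The largest falls above 1 CPM otherwise belonged to genes of varied function. TTR, the carrier of thyroxine, was at 2.22, 1.82 and 2.74 CPM in siSCR and at 0.591, 0.364 and 0.572 CPM in siMETTL3 (−2.14, standard error 0.40, edgeR adjusted p = 0.0181). MAP2, a microtubule-associated protein, went from 15.4 ± 2.82 to 6.59 ± 0.400 CPM (−1.22, adjusted p = 0.00977) and BCHE, butyrylcholinesterase, from 24.2 ± 3.95 to 9.93 ± 1.36 CPM (−1.28, adjusted p = 0.0172). CLEC7A (−1.49), ABCB11 (−1.21), ABCA12 (−1.18) and TMTC1 (−1.17) were the other genes with a symbol in this set. PTPRC, the leukocyte antigen CD45, fell from 1.31 ± 0.212 to 0.195 ± 0.0717 CPM (−2.68, adjusted p = 0.0181), while CD3E and CD68 were at 0 in 5 of the 6 libraries. With a mean of 0.753 CPM, PTPRC lay outside this set. It had 2, 5 and 4 counts in siMETTL3, near the floor of 3, and DESeq2 gave it no adjusted p. The smallest p-values among lower genes were those of VPS9D1-AS1 (−0.85, adjusted p = 0.00536), RRP1B, ZNF385B (−0.74, adjusted p = 0.00977), PCDH19 (−0.84, adjusted p = 0.00977) and H2AC11 (−0.98, adjusted p = 0.00977). The noncoding RNA DANCR (−0.59) was among the lower genes with the most reads. VPS9D1-AS1 is antisense to another gene, whose reads cannot be told from its own without strand.

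Histone genes that are expressed with DNA replication were looked at after H2AC11 and H2BC12 (152 ± 6.81 to 86.1 ± 17.6 CPM, −0.82, adjusted p = 0.0107) were seen among the lower genes. Of 65 in the files 32 were tested, 5 were called lower and 0 higher, those that prompted the look among them, against 0.371% of all genes called lower. A fold change below 0 was measured in 29, and the median was −0.51. Many are close copies of each other, so the split among them is uncertain, and most of their transcripts lack a poly(A) tail.

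RRP1B, a ribosome biogenesis factor that was called lower also with R1881 and in 22Rv1 in vehicle, was at 106, 101 and 114 CPM in siSCR and at 60.2, 60.4 and 67.7 CPM in siMETTL3 (−0.77, standard error 0.10, edgeR adjusted p = 0.00536). Its 3′ untranslated region holds 1 copy of CCGTACT, a 7-base word chosen earlier because it marked the strongest falls in the 22Rv1 vehicle libraries, which are not among these 6. Sites from GENCODE transcripts on GRCh38 are shown with the word in capitals for RRP1B (chromosome 21) and FBXO10 (chromosome 9), the 2 of 170 tested genes with the word that were called lower, and for GNB1 (chromosome 1), with an adjusted p of 0.00977 but −0.47, under the fold threshold.
RRP1B: taccgtattcgCCGTACTaagttggtttc
FBXO10: actttactgaaCCGTACTgtgaatatgtc
GNB1: atcctatccaaCCGTACTaacgtggacac

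FBXO10 fell from 9.82 ± 0.362 to 5.82 ± 1.10 CPM (−0.75, edgeR adjusted p = 0.0293). Over the 170 genes with the word the median was −0.05 on the log2 scale, with 105 below 0 and 0 called higher. Of all 12937 protein-coding genes tested 6242 were below 0 and 45 were called lower. Under the fold threshold, TGS1 (−0.52, adjusted p = 0.0275), COPS8 (−0.50, adjusted p = 0.0279) and EDA (−0.51, adjusted p = 0.0302) also fell. RIMKLA, which also holds the word, had 0.43 (adjusted p = 0.0467), a higher value under the fold threshold, and ENTPD2 0.78 (adjusted p = 0.0560). Every siMETTL3 library lay below every siSCR library in 18.8% of them, against 11.1% of those protein-coding genes. The consensus GGACT stood in 94.4% of the canonical transcripts of higher coding genes, in 91.1% of lower and in 91.5% of all, at medians of 1.1245, 0.911 and 0.934 per kilobase. The higher genes were rich in G and C, with a median GC content of 55.5%, and the lower genes poor, with 43.2%, against 48.9% over all coding genes tested. With an offset for GC content in each library 406 genes were called, 182 of the 197 among them, and the median of HIF-1 targets was 0.67. The part of GC content in the calls beyond this was not tested.

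The same knockdown in cells given R1881 shares no library with the vehicle comparison, though the residual spread was estimated from all 12 libraries. There 115 genes were called (0.7%). Of the 136 genes higher in vehicle 112 were also above 0 with R1881, and of the 61 lower genes 48 were below 0, against 50.5% of all genes above 0 and 49.5% below. Their medians were smaller, 0.34 against 0.94 for the higher and −0.47 against −0.87 for the lower genes. The genes were picked for a large effect in vehicle, so this comparison of medians is a description. Called in the same direction in both were 18 genes, 6 higher and 12 lower, which is 9.14% of the vehicle DEGs and 15.7% of the R1881 DEGs, and 0 were called in opposite directions. Among the shared genes were S100P (1.68 in vehicle and 1.22 with R1881), FXYD3 (1.28 and 0.76), C2orf72 (1.116 and 0.92), ITGB4 (0.66 and 0.67), RRP1B (−0.77 and −0.65), ZNF385B (−0.74 and −0.80), H2AC11 (−0.98 and −0.94) and UGT2B28 (−1.49 and −1.11).

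PLOD2, ERO1A and PGK1 had −0.03, −0.20 and 0.08 with R1881 (adjusted p of 0.912, 0.504 and 0.700), against 1.17, 1.22 and 0.75 in vehicle. HILPDA, ENO2 and P4HA2 stayed further above 0, at 0.51, 0.49 and 0.46 (edgeR adjusted p of 0.128, 0.218 and 0.0864), against 1.28, 1.29 and 0.99. The median of HIF-1 targets was 0.13 with R1881, with 23 of 39 above 0. That of glycolytic enzymes was 0.15, with 14 of 17 above 0. Each list had 0 calls, where 0.7% of all genes were called. The siSCR R1881 #1 library stood apart from the other 2 of its group for these lists. Its mean log2 level of HIF-1 targets was 1.03 above the siSCR vehicle mean, against 0.62 and 0.76, and its UDP-glucuronosyltransferases were at −1.25 against −0.57 and −0.55. Without it 1497 genes were called with R1881, 58 of the vehicle DEGs among them in the same direction. In that fit the medians of HIF-1 targets and glycolytic enzymes were 0.30 and 0.26, with 9 of 39 and 1 of 17 called. With 1497 calls over all genes, these list counts are a description. Without any other R1881 library 1 to 54 genes were called, without siMETTL3 vehicle #1, which enters through the shared spread, 797, and without siSCR vehicle #1 or #2 54 or 49. A test of the difference between the 2 knockdown effects called 0 of 16435 genes (0%) in edgeR, with 2037 at an unadjusted p under 0.05, and 60 in DESeq2, 22 of which were vehicle DEGs. A smaller effect with R1881 was therefore not shown for a single gene by the main test.

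**Figure D4:**
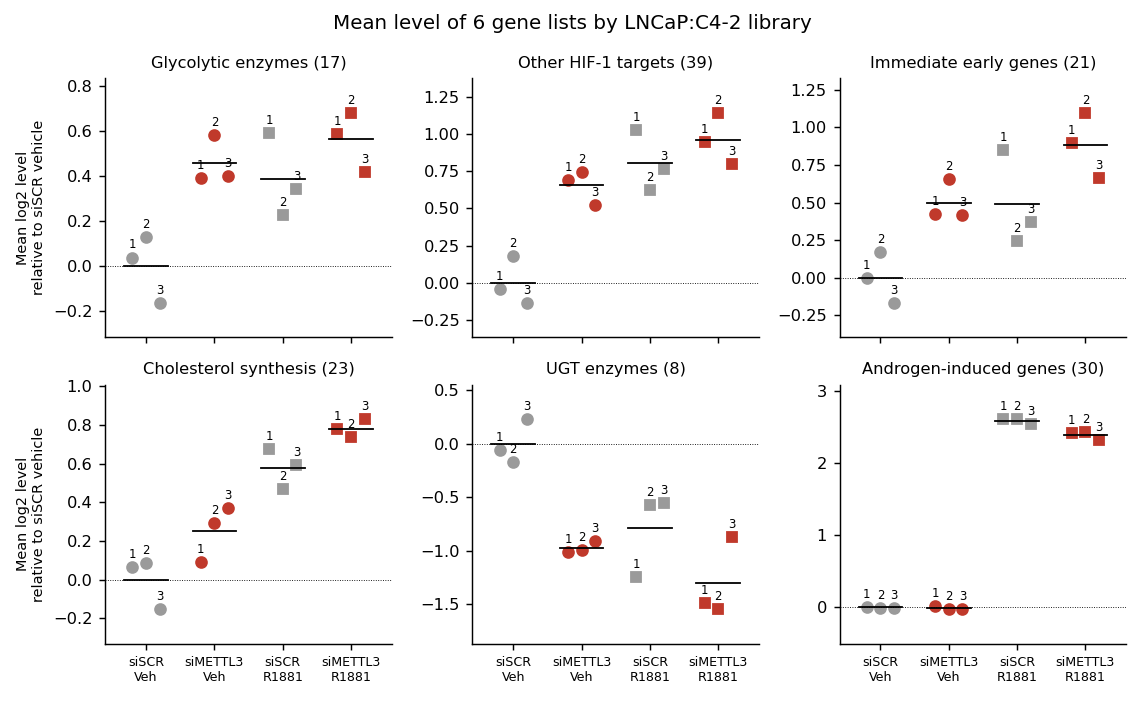
Mean log2 level of 6 gene lists in each of the 12 LNCaP:C4-2 libraries relative to the mean of the 3 siSCR vehicle libraries (dotted line), with the replicate number above each point, circles for vehicle and squares for R1881, and the group mean as a bar. In vehicle the siMETTL3 libraries of glycolytic enzymes and HIF-1 targets lie above all siSCR libraries, with R1881 the groups overlap, and the androgen-induced genes lie at 2.33 or more with R1881.

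In 22Rv1 cells in vehicle, from the fit of all 24 libraries, 19 of 19437 genes were called (0.0978%). Of the genes higher in LNCaP:C4-2 69 of 136 were above 0 in 22Rv1, with a median of 0.01, and of the lower genes 42 of 61 were below 0, with a median of −0.21. Called in both, and lower in both, were 4. METTL3 had −0.89 in 22Rv1 (standard error 0.09) and RRP1B −0.88 (standard error 0.09). The difference between the lines was called for 89 genes (0.458%), 48 of them vehicle DEGs of LNCaP:C4-2. Since those DEGs were picked for a large effect in 1 of the 2 lines, this share is a description. Among the smallest p-values were those of MT2A (0.59 in LNCaP:C4-2 and −0.44 in 22Rv1, edgeR adjusted p of the difference 0.00238), MAP2 (−1.22 and 0.15, 0.00238), ERO1A (1.22 and −0.34, 0.00263) and FXYD3 (1.28 and 0.18, 0.00350). HIF-1 targets had a median of 0.01 in 22Rv1, with 11 of 39 called for the difference, and UDP-glucuronosyltransferases had −0.32, with 0 of 8.

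**Figure D5:**
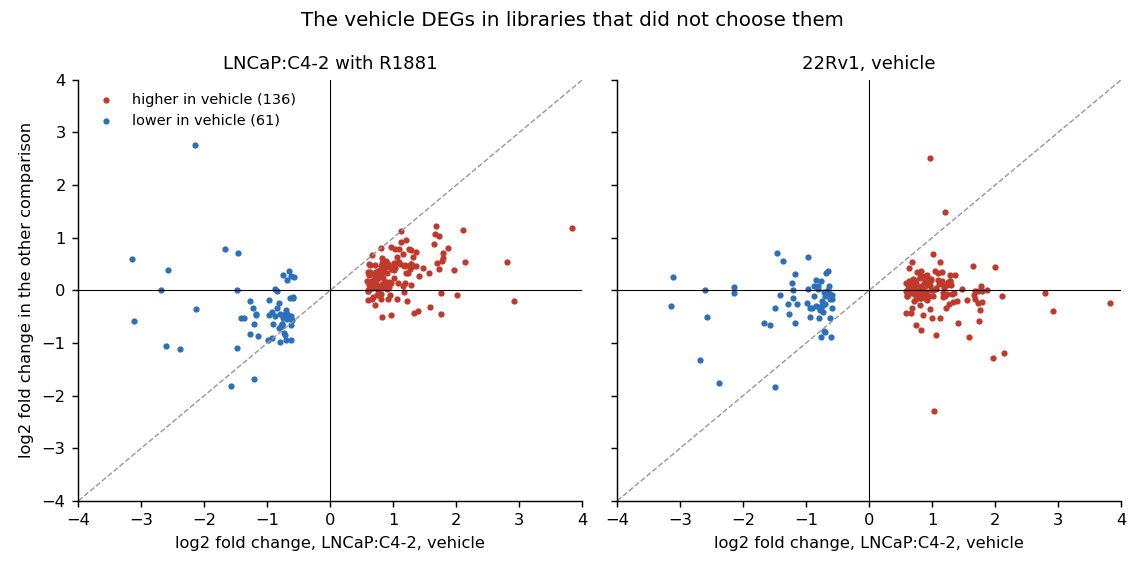
The 197 vehicle DEGs of LNCaP:C4-2 (higher in red, lower in blue) by their log2 fold change in vehicle on the horizontal axis and, on the vertical axis, in LNCaP:C4-2 with R1881 (left) or in 22Rv1 in vehicle (right), with the line of equal change dashed. With R1881 112 of the 136 higher genes remain above 0 but mostly below the dashed line, and in 22Rv1 the higher genes scatter around 0 with a median of 0.01.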

How the data were processed

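RNA-seq of LNCaP:C4-2 cells in vehicle was analysed, 3 libraries with siSCR and 3 with siMETTL3, beside 6 libraries with R1881 and, for the difference between cell lines, the 12 of 22Rv1. Groups and replicate numbers came from the labels. After trimming (Trim Galore) and alignment (STAR, GRCh38), the authors deposited raw counts of fragments per gene from featureCounts 1.5.0 (Ensembl release 83, paired fragments, no strand option, multiply aligned or ambiguous fragments left out by default). Names were matched for 56558 of 60675 genes from GENCODE release 44.

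The 12 LNCaP:C4-2 libraries were fitted with a mean per condition in edgeR 4.0.16 (R 4.3.3): filterByExpr (count minimum 10, total minimum 15), TMM, glmQLFit and glmQLFTest, with 8 residual degrees of freedom and Benjamini-Hochberg adjustment. DEGs had an adjusted p under 0.05 and a change of at least 1.5-fold. Differences between treatments or lines were called without a fold threshold. Standard errors are the absolute log2 fold change over the square root of F. Alternatives were DESeq2 1.42.0, RLE or library-size scaling, mitochondrial genes removed, other filters and thresholds, a replicate block, fewer or more libraries, spline offsets for GC content or length, and each library left out.

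The members, the 38 lists of 893 symbols (891 matched) and the naming rule were chosen with earlier results of these data known. Named were METTL3, among DEGs with at least 1 CPM and groups that did not overlap the 12 largest changes, 5 smallest p-values and 4 highest levels in each direction, up to 5 called members of a list, and up to 5 genes that differed between comparisons. Others are marked, and a few genes that the rule names are not reported here. Genes without a symbol are counted only. The test was checked on simulated counts. Promoters and sites came from RefSeq and GENCODE tables, Python 3.11.15, scipy 1.17.1.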

Additional observations from a re-analysis of the deposited data

Results flagged for a closer look

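A different response to the knockdown in 22Rv1 than in LNCaP:C4-2, both in vehicle, was called for the genes given here by the test of the difference itself (edgeR, 24 libraries, adjusted p under 0.05 over 19437 genes). The values are the log2 effect in 22Rv1 minus that in LNCaP:C4-2, so a negative value of a gene that rose in LNCaP:C4-2 is a smaller or opposite effect in 22Rv1. Among genes of glycolysis and the HIF-1 response the difference was −1.57 for ERO1A, −1.25 for PLOD2, −1.16 for NDRG1, −1.15 for PFKFB4 and −0.79 for PGK1. Among stress and immediate early genes it was −2.87 for FOS, −1.83 for GDF15, −1.05 for ATF3, −0.98 for DNAJB9, −0.88 for DDIT3, −0.83 for ERN1 and −0.60 for TRIB3. Other genes that rose in LNCaP:C4-2 had −3.35 (IGF2), −1.99 (KCNN1), −1.86 (S100P), −1.12 (FXYD3), −1.10 (UNC5B), −1.04 (MT2A), −0.88 (SAT1), −0.69 (INSIG1) and −0.66 (LAMC1). Genes that fell there had 2.18 (TTR), 1.47 (TMTC1), 1.35 (MAP2) and 0.82 (H2BC12). All were picked for their effect in LNCaP:C4-2, and what the differences come from was not tested.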

How the results depend on the processing

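The counts moved with the settings. The 197 DEGs (136 higher, 61 lower) became 380 (267, 113) in DESeq2, 464 (338, 126) without the low-count filter, 406 (267, 139) with the GC offset, 112 (78, 34) with only the 6 vehicle libraries, 40 (27, 13) at an adjusted p under 0.01 and 0 (0, 0) with the 1.5-fold threshold inside the edgeR test (388 at an unadjusted p under 0.05). They became 474 (327, 147) with all 24 libraries, and 493, 564 and 551 in that fit without siSCR #2, siMETTL3 #1 and siMETTL3 #3. RLE, library size, TMM without mitochondrial genes, 10 counts in every library and the length offset gave 200, 191, 201, 171 and 239. The causes were not tested. The fits of 24 libraries, of 6 with the block and without single R1881 libraries were chosen after seeing the data.

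Same-numbered libraries correlated at −0.40, 0.36 and −0.37 after group means were removed, and not every library correlated best with its own. Removing the mean of 3 libraries ties these correlations together. They therefore cannot tell whether same-numbered libraries were prepared together. The replicate block gave 181 DEGs (162 of the 197), and with only the 6 libraries 28 (24, 4). METTL3 had −0.61 with only the 6 vehicle libraries, with an adjusted p of 0.0540, and −0.61 with the block added (0.161).

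With 1 library left out in turn, DEGs ran from 0 to 339, higher from 0 to 235, lower from 0 to 104, those shared with R1881 from 0 to 111, genes that differed with R1881 from 0 to 8 and in 22Rv1 from 14 to 308, called list members from 0 to 65 and named genes kept from 0 to 63. METTL3 ran from −0.66 to −0.55 (adjusted p 0.0114 to 0.0982). Mitochondrially encoded proteins, with a median of −0.10, ran from −0.227 without siMETTL3 #1 to 0.0188 without siMETTL3 #2, where the sign reversed. Shared genes were 56 in DESeq2 and 95 without the filter, against 18. Genes that differed with R1881 were 60 and 351, and in 22Rv1 322 and 300, against 0 and 89.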
